A study of Mus musculus with 20 samples.

Results

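The immediate early genes Fos, Fosb, Jun, Junb, Egr1, Ier2, Atf3, Dusp1, Nr4a1 and Klf4 were followed in the thoracic aorta of 20 mice given whole-body proton or gamma radiation. The 10 genes were taken by symbol from a table of sense-strand read counts for 21078 genes, and each symbol matched 1 row. All 10 averaged at least 5 counts per mouse and were among the 13124 genes tested. The mice were wild-type adult males of the C57BL/6 strain, 10 to 12 weeks old, with no transgene or deletion in any group. Of each radiation type, 1 mouse received each of the doses 0, 5, 10, 25, 50, 75, 100, 125, 150 and 200 cGy, and the aorta was taken 4 h later. The 0 cGy mice were shams, which were restrained in the same way but not exposed. The animals were conscious in plexiglass chambers, and the order in which single mice were handled and dissected is not part of the labels. A dose was therefore not replicated within a radiation type, and the spread given here is that over mice of different doses.

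Immediate early genes are transcribed within minutes of a stimulus, without new protein synthesis, because their promoters are already bound by factors such as SRF with its ternary complex partners and by CREB, which are activated by kinases. Their messages are short-lived, and several of their products shut the response off again. Fos, Fosb, Jun and Junb encode subunits of the AP-1 dimer, Atf3 encodes a related leucine zipper protein, Egr1 and Klf4 encode zinc finger factors, and Nr4a1 encodes an orphan nuclear receptor. Dusp1 encodes a phosphatase that inactivates MAP kinases, and Ier2 encodes a nuclear protein of the same rapid class. In arteries these genes are known to respond to stretch, injury and vasoactive hormones, and also to stress, handling and tissue dissociation.

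Promoter sequence was looked at first, since CREB binding to the cAMP response element (CRE) is a shared feature of the class. RefSeq promoters (build GRCm38.p6, from 250 bases before to 50 bases after the start) were given for 8 of the 10 genes, and all 8 were found once, without mismatch, in the mm9 genome. Egr1 and Ier2 had no entry. The CRE half-site TGACG, searched on both strands, was present in 7 of the 8 promoters, against 20.8% of 32851 promoters and 30.0% of the 11835 promoters of tested genes. Nr4a1 held 4 half-sites, Dusp1 held 3, of which a pair overlap in the full element TGACGTCA, and Fos held 2. The full element was in 1 of the 8 promoters and in 2.95% of those of tested genes. The letters TATAAA were found in 2 of the 8 (Fos and Junb) and in 7.34% of promoters of tested genes. Neither the AP-1 site TGANTCA nor the CArG box was found in any of the 8, where 5.1% and 1.4% of promoters of tested genes held them. With such low shares their absence from 8 promoters says little. Sites outside the window and variants of these letters were not searched. These matches are descriptions of letters in a window and not measured binding. The sequences given are the stretches before the first annotated exon of Fos, Fosb, Dusp1 and Jun. Among the other members, Fosb and Dusp1 had the levels that ran closest to Fos in the 20 mice. Jun had the promoter without a half-site. Capitals mark the CRE half-site on either strand, sequences run 5′ to 3′ on the strand of the gene, and coordinates are of mm9.
Fos, chr12:86814590-86814839, plus strand: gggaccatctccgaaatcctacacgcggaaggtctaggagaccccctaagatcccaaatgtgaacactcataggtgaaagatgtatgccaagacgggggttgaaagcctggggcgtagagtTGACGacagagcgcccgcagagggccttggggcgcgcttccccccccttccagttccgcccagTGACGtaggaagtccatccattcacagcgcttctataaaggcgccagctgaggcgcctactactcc
Fosb, chr7:19895395-19895644, minus strand: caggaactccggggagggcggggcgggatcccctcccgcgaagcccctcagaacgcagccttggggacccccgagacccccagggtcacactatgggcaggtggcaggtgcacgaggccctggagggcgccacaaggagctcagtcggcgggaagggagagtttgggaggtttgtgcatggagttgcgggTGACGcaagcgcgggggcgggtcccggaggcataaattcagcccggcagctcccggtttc
Dusp1, chr17:26645465-26645667, minus strand: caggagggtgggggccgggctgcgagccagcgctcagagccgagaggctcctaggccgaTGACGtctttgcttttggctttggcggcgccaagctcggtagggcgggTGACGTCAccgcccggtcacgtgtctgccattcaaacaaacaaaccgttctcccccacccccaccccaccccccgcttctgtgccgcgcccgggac
Jun, chr4:94718914-94719163, minus strand: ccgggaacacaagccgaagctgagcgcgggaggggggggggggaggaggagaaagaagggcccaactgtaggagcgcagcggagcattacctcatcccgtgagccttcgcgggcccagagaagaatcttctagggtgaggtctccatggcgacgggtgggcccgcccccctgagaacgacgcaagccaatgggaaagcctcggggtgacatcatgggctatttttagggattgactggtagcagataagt

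The libraries had nearly the same depth, with 6051657 to 6058006 counts per mouse, and 3 counts correspond to 4.95e-05% of a library. Such floors and the counting intervals given here cover counting error only. Smooth muscle markers were high in every library, with 77335 to 161018 counts of Acta2. The Proton 75 cGy library stood apart. Its summed brown fat markers reached 2411 CPM (counts scaled to a common library total; 156 to 904 in the other 19) and its summed skeletal and heart muscle markers 3007 (19.8 to 65.7 in the others), while its smooth muscle markers were lowest with 27459 (40606 to 55125 in the others). Within its skeletal and heart muscle list, heart genes such as Myh6 (6721 counts, at most 105 in the others) and Nppa (2312, at most 4) were high. The skeletal muscle genes Acta1 (11 counts) and Tnnt3 (19 counts) stayed within the range of the others. The 4 mice at 150 or 200 cGy also differed from the others in how counts depended on GC content. The correlation across 9702 genes between a gene's deviation from its mean and its GC content was between -0.41 and -0.35 in these 4 mice and between -0.02 and 0.29 in the other 16. The members' transcripts had a median GC content of 55.2%, against 50.4% for all genes tested, so dose and this library property cannot be told apart at the highest doses.

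In the 2 sham aortas all 10 genes were clearly detected, from 45 counts of Fosb to 1023 counts of Dusp1. In bulk tissue such as this, a difference in the number of cells of a type and in RNA per cell cannot be told apart. Levels were compared between genes as CPM per kilobase of exon. By the mean of the 2 shams, Dusp1 was highest with 44.0, followed by Jun with 40.0 and Egr1 with 29.0. Klf4 (20.2), Nr4a1 (18.9), Ier2 (13.5), Fos (11.6) and Atf3 (11.3) were intermediate, and Junb (5.76) and Fosb (4.25) were lowest. Over all 20 mice the means were 45.1 ± 12.3 (SD) for Dusp1, 32.9 ± 9.76 for Jun and 4.98 ± 2.65 for Fosb. The ranges of mean ± SD overlapped for Dusp1 and Jun, the phosphatase and the AP-1 subunit at the top of this order. They also overlapped for Fos (11.4 ± 8.89) and Atf3 (11.8 ± 6.03), and for Junb (6.61 ± 2.45) and Fosb. The genes of a pair were measured in the same mice, and differences between them within mice were not tested.

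The 2 shams differed from each other, although neither was irradiated. Fos had 260 counts in the Proton sham and 70 in the Gamma sham, a ratio of 3.71 (exact 95% interval 2.84 to 4.91). For Atf3 the counts were 214 and 57 (ratio 3.75, 2.79 to 5.12), and for Fosb they were 148 and 45 (3.29, 2.34 to 4.70). The Proton sham was thus the higher one for the Fos pair and for Atf3. Nr4a1 had 422 counts in the Proton sham and 143 in the Gamma sham (2.95, 2.44 to 3.59), and Dusp1 had 1023 and 415 (2.47, 2.20 to 2.77). Jun (991 and 554) and Egr1 (654 and 434) differed in the same direction by ratios of 1.79 and 1.51. The other members did not share this direction. Junb had 62 and 64 counts and Ier2 had 118 and 131, with intervals of the ratio that include 1, and Klf4 was lower in the Proton sham, with 320 counts against 429 (0.746, 0.643 to 0.864). These intervals describe 2 libraries and not a difference between groups of shams. By count, 5 of the 10 members differed over 2-fold between the shams, against 1.41% of the 9817 genes that averaged at least 50 counts, called well-counted genes in what follows (median absolute log2 ratio 1.07 and 0.15).

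Where the irradiated mice lay relative to the 2 shams differed between members. For Atf3 and Dusp1, 17 of the 18 irradiated mice lay between the 2 shams and 1 lay above both, and for Nr4a1 the numbers were 15 and 3. Fos had 13 irradiated mice between the shams, 2 below and 3 above, Fosb had 13 between and Jun had 10. Fewer lay between the shams for the remaining members, 8 of 18 for Klf4, 5 for Egr1, 4 for Ier2 and 0 for Junb. The Gamma sham was the lowest of the 20 mice for Atf3 and for Nr4a1, and it was the highest for Klf4. With shams this far apart, a fold change against a sham depends on which mouse is taken.

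**Figure D1:**
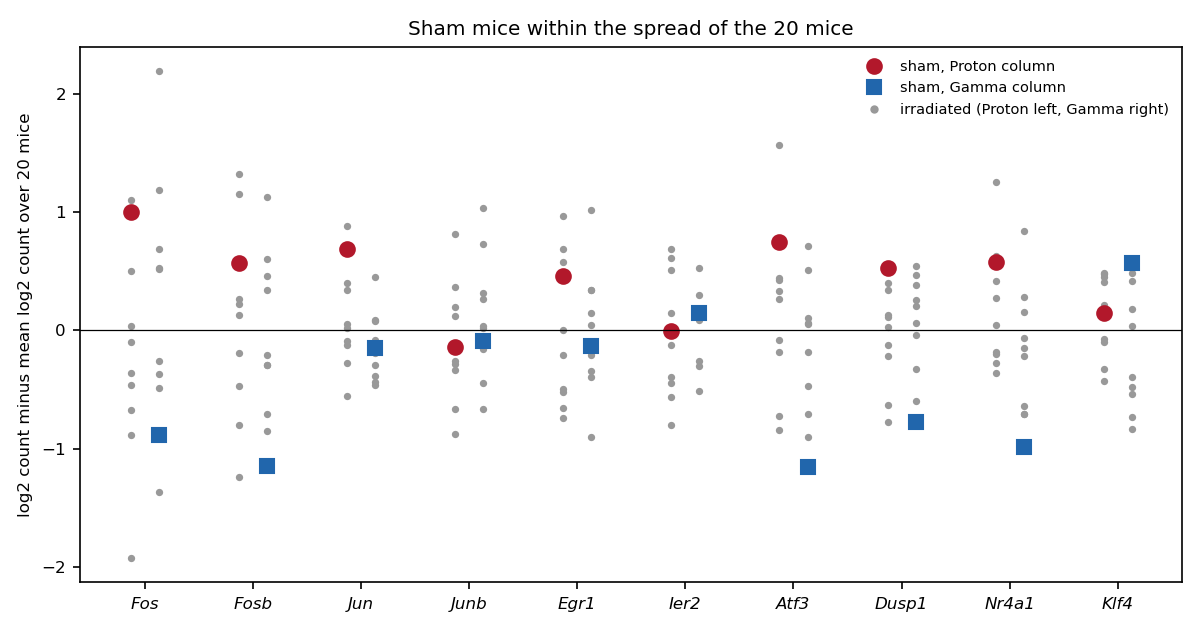
Log2 count of each immediate early gene minus the mean of its log2 counts over the 20 mice, 1 point per mouse, with the sham mice as large symbols and irradiated mice in grey. The Proton sham lies above the Gamma sham for Fos (260 and 70 counts), Fosb, Jun, Egr1, Atf3, Dusp1 and Nr4a1, and most irradiated mice fall between them for Atf3 and Dusp1.

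The members varied more between mice than most genes. The SD of log2 CPM over the 20 mice was 0.96 for Fos, 0.73 for Fosb, 0.66 for Atf3, 0.56 for Nr4a1 and 0.56 for Egr1. It was lowest for Jun with 0.39, and the median over the 10 members was 0.52, against 0.20 for the well-counted genes. Among these the members stood between percentile 88.8 (Jun) and percentile 99.1 (Fos). Fos ranged over 17.4-fold, from 34 counts in the Proton 5 cGy mouse to 592 in the Gamma 25 cGy mouse. Atf3 ranged over 6.61-fold, Fosb over 5.93-fold and Nr4a1 over 4.74-fold, whereas Dusp1, the most abundant, ranged over 2.49-fold. The coefficients of variation, 27.2 to 78.1%, exceeded the 3.68 to 11.8% that counting alone would give at these depths. The median coefficient of variation was 38.8% for the members and 13.8% for the well-counted genes.

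Much of this spread was shared, so that single mice were high or low for many members at once. Each member was standardised to its own mean and SD over the mice, and the 10 values were averaged for each mouse. The Proton 200 cGy mouse had the highest mean (1.57 SDs) and the Gamma 25 cGy mouse the next (1.37), and in both all 10 members lay above their own means. The Proton sham followed with 0.73 (8 of 10 members above), then the Proton 125 cGy mouse with 0.63 (8) and the Proton 50 cGy mouse with 0.43 (8). At the other end were the Gamma 150 cGy mouse with -0.96 (1 of 10), the Proton 25 cGy mouse with -0.88 (0 of 10) and the Gamma sham with -0.69 (2 of 10). The Proton sham was thus among the high mice and the Gamma sham among the low ones, and the Gamma mice at 100, 125, 150 and 200 cGy had 0.15, -0.67, -0.96 and -0.08. A first principal component of the standardised levels held 50.8% of the variance of the 10 genes and the second held 19.6%.

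**Figure D2:**
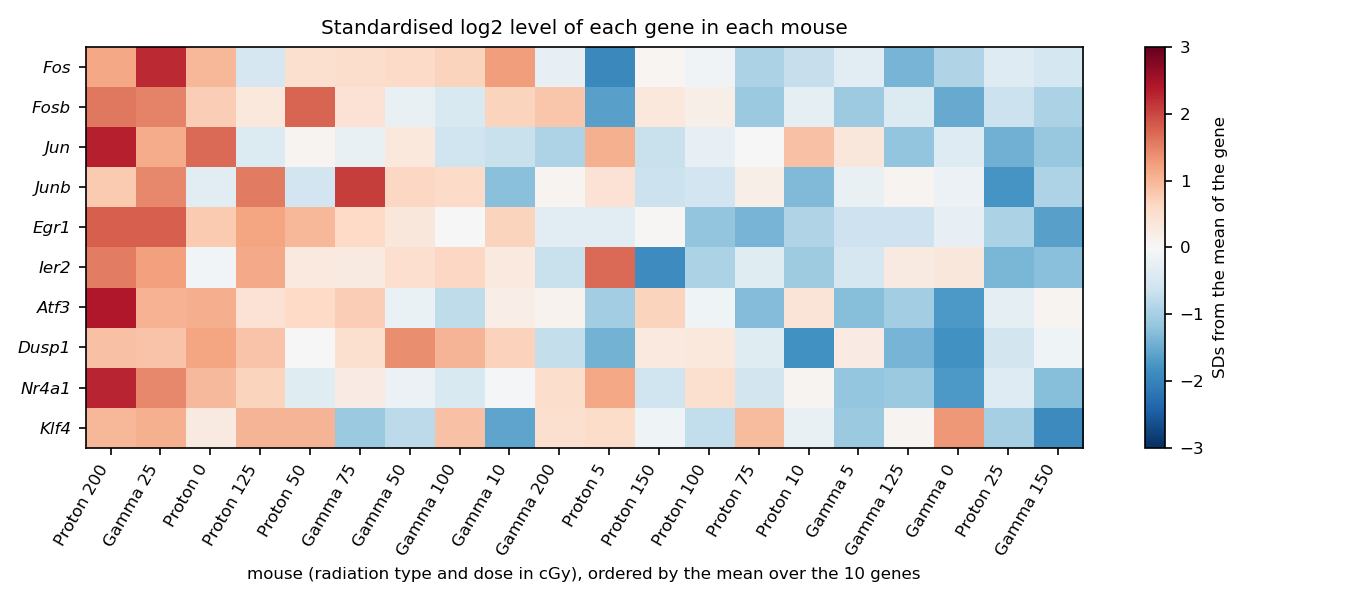
Standardised log2 level (SDs from the gene's mean) of each of the 10 genes in each of the 20 mice, with mice ordered by the mean over the genes. The Proton 200 cGy and Gamma 25 cGy columns are above the mean for all 10 genes, and the Proton 25 cGy column is below it for all 10.

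Over the 45 pairs of members, Pearson's r of log2 CPM across the 20 mice had a median of 0.44, and 43 pairs were above 0. For comparison, the 48181836 pairs of well-counted genes had a median r of -0.0045 (5th to 95th percentile -0.57 to 0.60). These coefficients are descriptions, since all pairs share the same 20 mice and libraries, and no p is given for them. The highest was that of Fosb with Atf3 (r = 0.84). Atf3 was also close to Nr4a1 (0.71), Egr1 to Fosb (0.74), and Jun to Nr4a1 (0.69). Among the others, Junb ran with Ier2 (0.68) and Ier2 with Klf4 (0.52), while Klf4 was near 0 with Fos and at -0.11 with Dusp1. Of the 6 pairs among the 4 AP-1 subunits, Fos with Fosb was high (0.76), and the others were lower, with 0.35 for Fos with Jun, 0.31 for Fosb with Jun, 0.30 for Jun with Junb and 0.22 for Junb with Fos and with Fosb.

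The pattern was present in each radiation type taken alone, with a median r over the 45 pairs of 0.51 in the 10 Proton mice and 0.52 in the 10 Gamma mice. It was 0.36 in the 16 mice at 0 to 125 cGy, 0.50 without the Proton 75 cGy mouse and 0.49 for residuals from the dose lines. Leaving out 1 mouse at a time gave medians of 0.35 to 0.49, the lowest without the Gamma 25 cGy mouse. Single pairs moved more. Fosb with Nr4a1 was 0.25 in Proton mice and 0.96 in Gamma mice, and Ier2 with Fos was -0.06 and 0.58. These differences between the types were not tested.

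**Figure D3:**
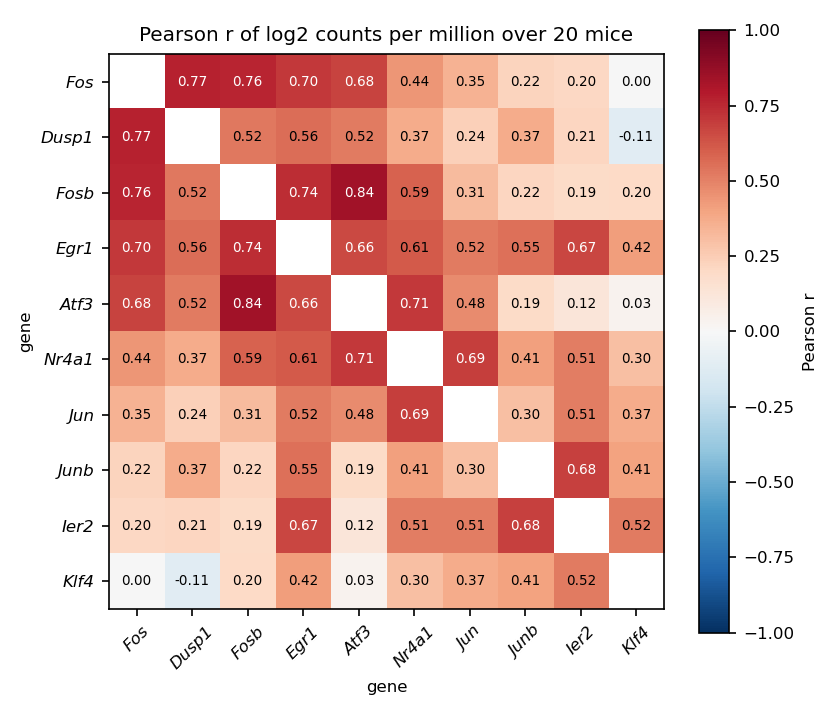
Pearson's r over the 20 mice for each pair of the 10 genes (log2 CPM), as colour and number. Fos, Dusp1, Fosb, Egr1 and Atf3 form the reddest block (Fosb with Atf3 0.84, Fos with Dusp1 0.77), and Klf4 is near 0 with Fos and Atf3.

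Correlation with Fos was tested for each of the other 13123 genes by permuting the mice 100000 times (two-sided), with Benjamini-Hochberg adjustment over all of them. Of the 9 other members, 0 passed an adjusted p of 0.1, and the share over all genes was 0%. Without adjustment, 4 of the 9 had p under 0.05, all with positive r, against 2.97% of all genes (1.48% with positive and 1.49% with negative r). Dusp1, which terminates MAP kinase signalling, had the largest r of the members (0.77, rho = 0.82, permutation p = 3e-05, adjusted p = 0.230) and ranked 3 among the 13123 genes. Spearman's rho ranked it 1, and its permutation p of 1e-05 is the smallest that these permutations can give (adjusted p = 0.131). A gene alone at this smallest p could therefore not pass 0.1. The 0 of 9 is thus limited by the number of permutations and does not show that correlation was absent. Fosb ranked 4 (r = 0.76, rho = 0.74, permutation p = 7e-05, adjusted p = 0.230). Egr1 ranked 6 (r = 0.70, rho = 0.68, permutation p = 0.00045, adjusted p = 0.844) and Atf3 ranked 8 (r = 0.68, rho = 0.67, permutation p = 0.00111, adjusted p = 0.9999). The remaining members were weaker. Nr4a1 had r = 0.44 (rho = 0.42, permutation p = 0.0523) and Jun r = 0.35 (rho = 0.30, permutation p = 0.135). Junb, Ier2 and Klf4 had r = 0.22, 0.20 and -0.00, with rho of 0.18, 0.26 and -0.02 (permutation p = 0.344, 0.388 and 0.995).

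Without the Proton 5 cGy mouse, the lowest for Fos, 7 of the 9 had an unadjusted permutation p under 0.05 (2.32% of all genes). Nr4a1 (r = 0.66, permutation p = 0.00227), Jun (r = 0.53, permutation p = 0.0181) and Ier2 (r = 0.47, permutation p = 0.0411) joined the 4, and 0 passed the adjusted p of 0.1. Without the 2 mice farthest from the median of Fos, which are the Gamma 25 cGy and Proton 5 cGy mice, r was 0.77 for Dusp1, 0.66 for Fosb, 0.69 for Egr1 and 0.65 for Atf3, and 0.58 for Nr4a1. Within the Proton mice alone r was 0.90 for Fosb, 0.85 for Atf3, 0.75 for Dusp1 and 0.62 for Egr1. Within the Gamma mice alone it was 0.84 for Egr1, 0.81 for Nr4a1, 0.79 for Dusp1, 0.73 for Fosb and 0.72 for Atf3. At 0 to 125 cGy, Fosb and Dusp1 still had r of 0.77 and 0.76. When dose lines were first removed from every gene, Fosb (r = 0.85) and Atf3 (r = 0.84) passed the adjusted p of 0.1, as the only members, and 4 genes in all did so. Both were at the smallest p that the permutations can give. Residuals were permuted as if no lines had been fitted, so these p may be too small. In that run 4.77% of all genes had an unadjusted p under 0.05.

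Other rapid response genes were described in the same way, from a list of 51 genes that leaves out the 10 members. Of the 47 tested, 11 had a positive r with Fos at an unadjusted p under 0.05 and 1 a negative one (Crem, r = -0.47), with a median r of 0.12 against -0.01 over all genes. The shares over all genes were 1.48% positive and 1.49% negative at the same unadjusted p. These shares also apply to the other lists of this paragraph, some of which are short. The following were picked after their values were seen. The matricellular growth regulator Cyr61 had r = 0.79, and the MAP kinase phosphatase Dusp6 and the zinc finger factor Egr2 had r = 0.59. The RNA-binding Zfp36, which destabilises short-lived messages, had r = 0.59, Ier3 had r = 0.58, and Ptgs2, the inducible cyclooxygenase, had r = 0.54. Their adjusted p over all genes was above 0.1. Kinases and factors upstream of immediate early genes (34 tested) and AP-1 dimer partners (14 tested) had 0 members with an unadjusted p under 0.05 for r with Fos and 0 with an adjusted p under 0.1. Heat shock genes had 1 of 11 (Dnajb1, r = 0.45). Circadian clock genes had 2 positive (Npas2 and Nfil3, r = 0.47 and 0.51) and 2 negative (Per3 and Tef, r = -0.47 and -0.50) of 16. The glucocorticoid-induced genes, a list that includes Dusp1, had Dusp1 as the 1 positive and 3 negative of 16 (Fkbp5, Map3k6 and Sult1a1, r = -0.56, -0.56 and -0.51).

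The 10 genes whose pattern over the 20 mice was most like the mean of the members were taken from 9807 well-counted candidates, whose r with that mean had a median of 0.01 and exceeded 0.5 in 64. Prdm2 came first with r = 0.77 and Cyr61 next with 0.74. Ppp1r15a (GADD34), a phosphatase regulator of the stress response, had 0.69, the interleukin receptor chain Il4ra had 0.69 and the transcript 2810008M24Rik had 0.67. Tcea1, a transcription elongation factor, had 0.65, the RNA-editing enzyme Apobec1 0.65, Fam3c 0.63, Rnf139 0.63 and the angiotensin-converting enzyme Ace 0.61. At 0 to 125 cGy alone, Prdm2 had 0.80 and Ppp1r15a 0.72, while 2810008M24Rik had 0.49 and Ace 0.51.

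Markers of other cell types were set beside this joint variation. In each of the 9 marker lists, 0 genes had an unadjusted p under 0.05 for r with Fos in the permutation test, and 0 had an adjusted p under 0.1. Over all genes the shares were 2.97% and 0%, so 0 in lists of 5 to 8 genes says little. The median r was 0.09 for smooth muscle, 0.02 for endothelial, -0.01 for fibroblast, 0.10 for macrophage, -0.12 for brown fat, -0.18 for fat cell, -0.16 for skeletal and heart muscle, 0.25 for blood cell and -0.22 for nerve and Schwann cell markers. Markers with r above 0 were 6 of 6 for blood cell, 6 of 7 for macrophage, 6 of 8 for smooth muscle, 4 of 8 for endothelial and 3 of 7 for fibroblast markers. They were 1 of 8 for brown fat, 0 of 8 for fat cell, 0 of 8 for skeletal and heart muscle and 0 of 5 for nerve and Schwann cell markers. Blood cell markers varied widely, with summed levels of 25.4 to 1298 CPM in Proton mice and 19.5 to 1898 in Gamma mice. Endothelial markers summed to 400 to 1371 in Proton mice and 392 to 1366 in Gamma mice. The part of these cells in the level of the members was not tested.

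Against dose, the AP-1 subunits showed no common course. Fos had 34 to 278 counts in Proton mice (median 111) and 50 to 592 in Gamma mice (median 146.5). The Proton values were highest at 200 cGy (278) and 0 cGy (260), and the Gamma values at 25 cGy (592) and 10 cGy (295), so high mice stood at both ends of the Proton doses and at low Gamma doses. Fosb, its relative, had 42 to 249 counts in Proton mice (median 112.5) and 45 to 218 in Gamma mice (median 83.5), with the highest values at 50 and 200 cGy and at 25 and 200 cGy. Jun had 418 to 1134 counts in Proton mice (median 631) and 444 to 839 in Gamma mice (median 545). In Proton mice it went from 991 at 0 cGy to 507 at 150 cGy and stood at 1134 at 200 cGy, and in Gamma mice the 3 lowest values, 444, 454 and 470, were those at 125, 150 and 200 cGy. Junb, the AP-1 subunit that can oppose Jun, had 37 to 120 and 43 to 140 counts. The Proton and Gamma ranges overlapped for all 4.

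The other regulators overlapped between the types in the same way. Atf3, which dimerises with Jun proteins and is also a p53 target, had 71 to 377 counts in Proton mice (median 156.5) and 57 to 209 in Gamma mice (median 122). Its highest value was in the Proton 200 cGy mouse and the next, 214, in the Proton sham. Nr4a1 had 221 to 678 counts in Proton mice (median 318) and 143 to 506 in Gamma mice (median 249), again with the Proton 200 cGy mouse on top. Egr1, a zinc finger activator of growth and injury genes, had 284 to 933 counts (median 445) and 255 to 963 counts (median 462). Its highest mice were Gamma 25 cGy (963) and Proton 200 cGy (933). Klf4, a factor that restrains smooth muscle genes, had 215 to 404 and 162 to 429 counts. Dusp1 had 415 to 1023 counts in Proton mice (median 745.5) and 415 to 1034 in Gamma mice (median 779.5), and Ier2 had 68 to 191 and 83 to 171.

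**Figure D4:**
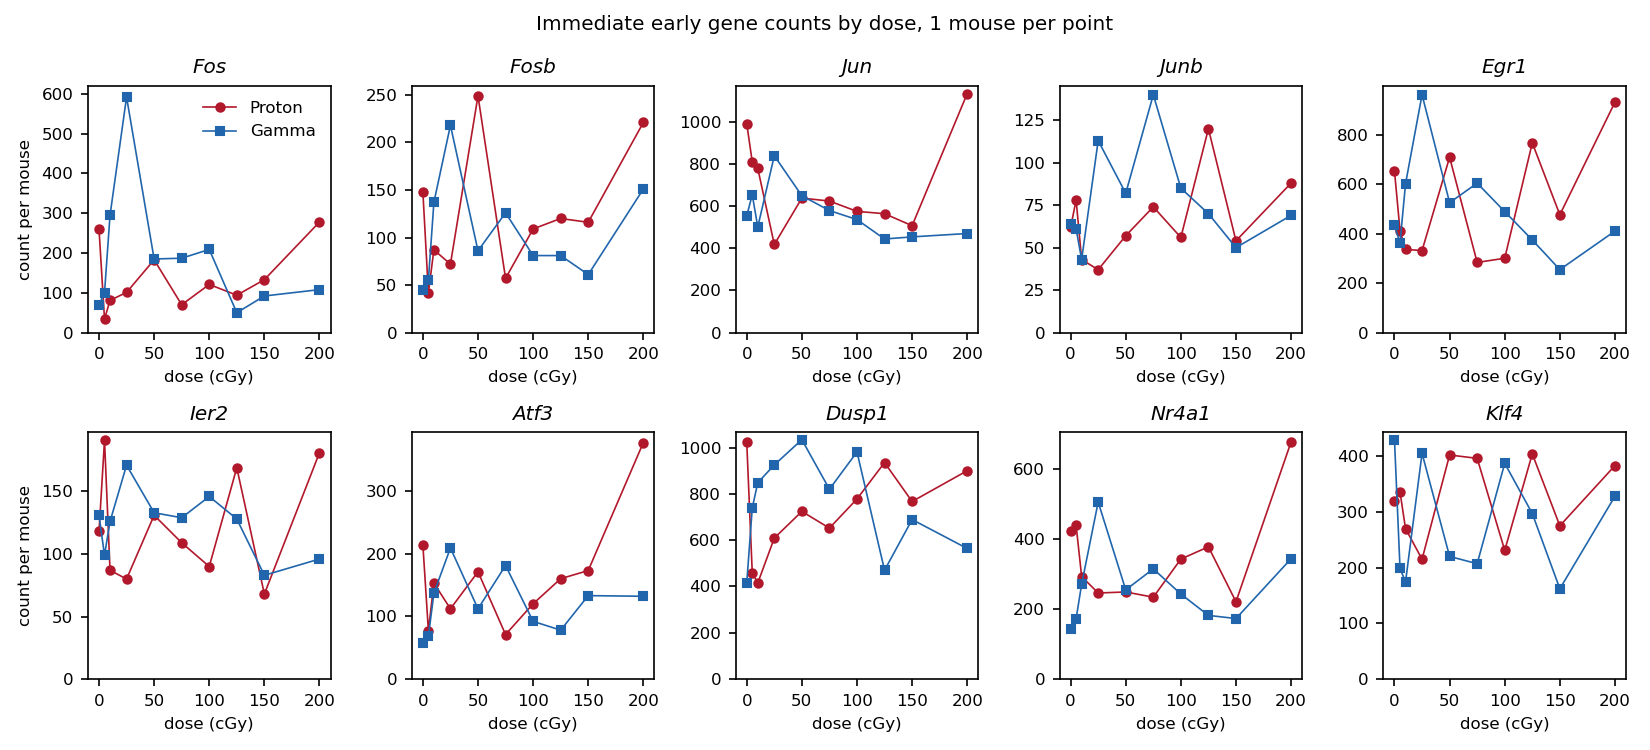
Counts of each immediate early gene against whole-body dose (cGy) for the 10 Proton mice (circles) and the 10 Gamma mice (squares), 1 mouse per point, with lines only joining neighbouring doses. Fos peaks in the Gamma 25 cGy mouse (592 counts), and Jun, Atf3 and Nr4a1 are highest in the Proton 200 cGy mouse (1134, 377 and 678).

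Log2 slopes per 100 cGy were fitted with edgeR's quasi-likelihood test on all 20 mice, with an intercept and a slope for each radiation type. After proton radiation 0 of the 10 members passed an adjusted p of 0.1, where 1.76% of all genes did (1.6% increasing), and 0 had an unadjusted p under 0.05, where 13.3% of all genes did. After gamma radiation 0 of the 10 passed, against 7.65% of all genes (5.44% increasing, 2.21% decreasing), and again 0 had an unadjusted p under 0.05 (18.4% of all genes). DESeq2 likewise called 0 members for either type. The slope nearest the threshold was that of Atf3 after proton radiation, 0.53 (SE 0.25, unadjusted p = 0.0509, edgeR adjusted p = 0.378). Next were Egr1 after proton radiation with 0.40 (SE 0.23) and Fos after gamma radiation with -0.79 (SE 0.47). The members' SEs ran from 0.16 to 0.40 for proton and from 0.18 to 0.47 for gamma slopes, against a median of 0.09 among well-counted genes.

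By sign, all 10 proton slopes were above 0 (0.06 for Jun to 0.53 for Atf3, median 0.32), while 50.6% of all genes were above 0 with a median of 0.00. Of the gamma slopes 3 of 10 were above 0 (median -0.11), against 53.5% of all genes. The members vary together over mice, so these 10 signs are not 10 separate observations. The Proton 200 cGy mouse, in which every member was above its mean, weighed on these signs. Without it, 6 of 10 proton slopes were above 0 with a median of 0.06, and those of Fos (-0.13), Jun (-0.44), Ier2 (-0.20) and Nr4a1 (-0.25) were below 0. With doses up to 125 cGy only, 6 of 10 were above 0 (median 0.12). Without the Proton sham all 10 stayed above 0 (median 0.45), and 3 of them, those of Egr1 (0.57), Atf3 (0.75) and Dusp1 (0.51), had an unadjusted p under 0.05 with edgeR adjusted p of 0.295, 0.198 and 0.204. In that fit 1857 of the 13124 genes tested had an unadjusted p under 0.05 for the proton slope. For gamma radiation the Fos slope was -0.42 without the 25 cGy mouse and -1.03 without the sham. With correction for GC content and gene length, all 10 proton slopes (median 0.40) and 5 of 10 gamma slopes (median -0.05) were above 0. In that fit 2 proton slopes and 0 gamma slopes of members had an unadjusted edgeR p under 0.05. Of the 13124 genes tested, 1001 did for proton and 1663 for gamma radiation.

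**Figure D5:**
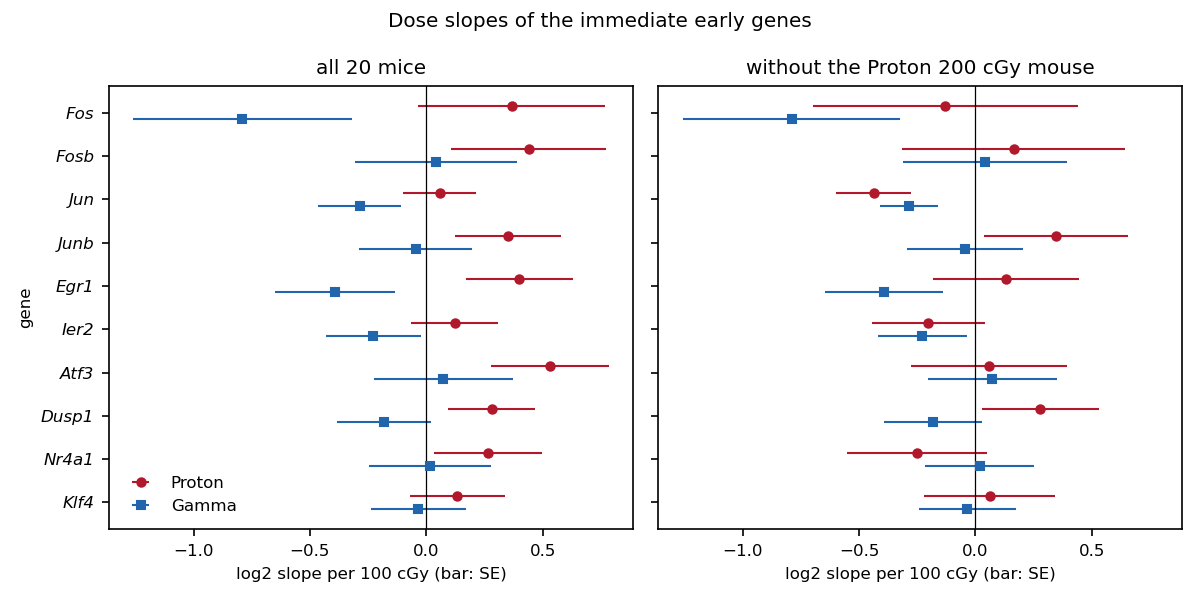
Log2 slope per 100 cGy (point) and its SE (bar) for each gene after proton and gamma radiation, from all 20 mice on the left and without the Proton 200 cGy mouse on the right. On the left all 10 proton slopes are above 0 (median 0.32), and on the right 6 of 10 are (median 0.06).

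Exact one-sided permutation tests of the Spearman rank correlation of count with dose found the same 0 of 10 in both types, where 0.198% of genes increased and 0% decreased after proton and 1.9% increased and 0.411% decreased after gamma radiation. The largest rank correlation of a member was that of Jun after gamma radiation, rho = -0.65 (exact permutation p = 0.0245, adjusted p = 0.420). It was the 1 member with an unadjusted p under 0.05, against 8.86% of genes in the decreasing and 14.5% in the increasing direction. After proton radiation 0 members were under 0.05 in either direction (7.12% of genes increasing, 5.47% decreasing). These counts depended on single mice. Without the Proton sham, 4 members had an increasing trend under 0.05, namely Dusp1 (rho = 0.88, exact permutation p = 0.00154, adjusted p = 0.271), Fos and Atf3 (both rho = 0.67, exact permutation p = 0.0294) and Fosb (rho = 0.63, exact permutation p = 0.0380), against 8.63% of genes. These p are one-sided. The two-sided exact permutation p was 0.00308 for Dusp1, 0.0589 for Fos and Atf3 and 0.0760 for Fosb. Without the Gamma mouse at 100, 125, 150 or 200 cGy, in turn, the trend of Jun was no longer under 0.05 (exact permutation p = 0.0540 to 0.0603). In Proton mice Jun had rho = -0.27, and -0.76 at 0 to 125 cGy, where the exact permutation p was 0.0184 one-sided and 0.0368 two-sided. Dusp1 (0.37), Fosb (0.35), Fos (0.32), Atf3 (0.32) and Egr1 (0.30) had the most positive rank correlations after proton radiation.

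Proton and gamma slopes were compared in the same edgeR model. The difference (proton minus gamma) passed an adjusted p of 0.1 for 0 of 10 members and for 0% of all genes. All 10 differences were above 0 (0.17 for Klf4 to 1.16 for Fos, median 0.40; 49.3% of all genes above 0). Egr1 was the 1 member with an unadjusted p under 0.05, with a difference of 0.79 (SE 0.35, unadjusted p = 0.0349, edgeR adjusted p = 0.99997), against 1.94% of all genes, and DESeq2 placed Egr1 and Fos under 0.05 without adjustment. Without the Proton 200 cGy mouse 7 of 10 differences were above 0 (median 0.11) and none of the 10 had an unadjusted p under 0.05. At 0 to 125 cGy 8 of 10 were above 0 (median 0.19).

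At matched dose, with dose as a factor, Proton and Gamma mice did not differ at an adjusted p of 0.1 for any of the 10 members or for any gene tested (0%). Without adjustment 0 members had p under 0.05, against 7.86% of all genes. DESeq2 likewise called 0 members, although it called 17 genes as higher and 53 as lower in Proton mice. The log2 difference (proton minus gamma) was 0.42 for Nr4a1 (SE 0.24, edgeR adjusted p = 0.714), 0.38 for Atf3 (SE 0.29), 0.26 for Jun (SE 0.17) and -0.37 for Fos (SE 0.46). The Proton mouse had the higher count at 8 of 10 doses for Jun and Atf3, at 7 for Nr4a1 and Klf4, at 6 for Fosb and Egr1, at 4 for Fos, Junb and Dusp1, and at 3 for Ier2.

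Other genes of the pathway were taken from lists and read from the same fits. Over all genes, 714 increases were called after gamma radiation in these fits. With correction for GC content and gene length 168 were called, and 29 at 0 to 125 cGy. After proton radiation the numbers were 210, 71 and 13. The genes named from lists were not followed in those alternative fits. Among 34 upstream kinases and factors, 1 rose after proton and 4 rose after gamma radiation, where 1.6% and 5.44% of all genes rose. The SRF coactivator Mkl2 rose in both (proton slope 0.36, SE 0.07, and gamma slope 0.30, SE 0.07), and Mapk8 (JNK1, 0.24), Rps6ka3 (RSK2, 0.22) and Rps6ka5 (MSK1, 0.39) rose after gamma radiation. Of 14 AP-1 dimer partners, Atf7 rose after both proton (1.09, SE 0.27) and gamma radiation (1.21, SE 0.28), Bach1 (0.35) and Atf2 (0.13) rose after gamma radiation, and the AP-1 repressor Jdp2 fell after gamma radiation (-0.47, SE 0.12), where 2.21% of all genes fell. Of the 47 other rapid response genes, Btg2, an antiproliferative gene that is also a p53 target, rose after proton (0.91, SE 0.11) and gamma radiation (0.48, SE 0.12), and the NF-kappaB inhibitor Nfkbia rose after gamma radiation (0.46, SE 0.13).

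As a reference for a response that followed dose, 14 of 23 p53 target genes rose after proton and 14 of 23 after gamma radiation (1.6% and 5.44% of all genes), with median slopes of 0.48 in both. Among them were Aen (proton 0.99, gamma 0.99), Ccng1 (0.95 and 0.84), Mdm2 (0.40 and 0.42), Ephx1 (0.79 and 0.71) and Trp53inp1 (1.05 and 1.22). The authors had already reported these genes, and Cdkn1a, as responding to dose of both types in the same libraries. Their rise here is therefore not a separate observation. None of the 23 had an unadjusted p under 0.05 for r with Fos (2.97% of all genes did), and their median r with Fos was 0.03. Glucocorticoid-induced genes gave 1 increase after proton (Cdkn1a, 1.39, which is also a p53 target) and 6 after gamma radiation, of 16. The 6 were Cdkn1a (1.59), Zbtb16 (1.38), Per1 (0.77), Klf15 (0.65), Sgk1 (0.58) and Klf9 (0.42). The clock genes gave 0 after proton radiation and 2 increases (Clock, 0.26, and Per1) and 1 decrease (Bhlhe41, -0.33) after gamma radiation, and of 11 heat shock genes Bag3 fell after gamma radiation (-0.23). For these 3 lists the shares over all genes are again 1.6% rising and 0.16% falling after proton and 5.44% rising and 2.21% falling after gamma radiation. Whether the gamma and proton slopes of these lists differ was not tested beyond the slope difference above, which passed for 0 genes.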

How the data were processed

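Aortic RNA of 20 mice was sequenced by the authors as stranded, polyA-selected, paired libraries. Per the labels and the methods, reads were converted with CASAVA 1.8.1, aligned to mm9 with STAR 2.5.2a and resampled to a common depth with PORT, and the deposited values are whole-number counts of sense reads per gene. Resampling evens out depth and removes reads from the deeper libraries. Every gene identifier was found in GENCODE M1, which uses the same assembly, and gene positions and lengths are from there.

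Genes that averaged at least 5 counts per mouse were tested with edgeR 4.0.16 (R 4.3.3, TMM, robust quasi-likelihood fits, an intercept and slope for each radiation type, or dose as a factor for matched doses), with Benjamini-Hochberg adjustment and a threshold of 0.1. Rank trends used exact permutation over all dose orders, and correlations used log2 TMM CPM with a prior count of 2 and 100000 permutations. Alternatives were DESeq2 1.42.0, sva 3.50.0, other filters, scalings, dose scales and prior counts, a GC and length correction, and leaving out mice. Dropping the Proton 75 cGy mouse from 0 to 125 cGy and dropping the 2 mice farthest from the median of Fos were chosen with the data in view. The scripts were tested on simulated data.

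The members, the gene lists and the rules for naming genes were chosen with earlier results of these data known. From each list other than the members, the genes named are those called for a slope, up to 6 by smallest p, and genes named for their correlation with Fos were chosen after their values were seen. The 82 symbols used by more than 1 gene include none of the members. The labels give no batch, and antisense and intron reads were not analysed here.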

Additional observations from a re-analysis of the deposited data

Results flagged for a closer look

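Within each radiation type the highest or lowest of the 10 mice was checked against the gap expected at Dixon's 95% level, for each member, in 20 sets of mice. The mice of a set had different doses, and about 1 in 20 such sets would be picked out by chance if values were normally distributed. The check was made on counts and not on log2 counts, and a high value stands out more on the scale of counts. In the Gamma 25 cGy mouse, Fos stood out with 592 counts (next highest 295), Egr1 with 963 (next 605) and Jun with 839 (next 654). Jun passed narrowly, with a gap of 0.468 of the range against a limit of 0.466. In the Proton 200 cGy mouse, Atf3 stood out with 377 counts (next highest 214) and Nr4a1 with 678 (next 439). The 5 sets come from 2 mice, which are the 2 with the highest mean level of the members, and the members are correlated over mice, so these are not 5 separate observations. The part of dose, of handling and of tissue composition in these 2 mice was not tested.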

How the results depend on the processing

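In every alternative run for the 20 mice, 0 members were called for a dose slope, a slope difference, a rank trend or a matched dose difference, and the median r over the 45 pairs stayed within 0.35 to 0.52. The number of members called for correlation with Fos was 0, except that it was 2 for residuals from the dose lines, with Fosb at r = 0.85 and Atf3 at r = 0.84. A gene alone at the smallest permutation p could not be called in any of these runs, and the p for residuals may be too small. Signs of single slopes, none of which was called, were less stable. With doses up to 125 cGy only, the sign changed for the proton slopes of Fos (-0.35), Jun (-0.47), Atf3 (-0.14) and Nr4a1 (-0.12), the gamma slopes of Fosb (-0.18), Junb (0.39), Ier2 (0.044), Atf3 (-0.086), Nr4a1 (-0.13) and Klf4 (0.035), the slope differences of Jun (-0.13) and Atf3 (-0.051) and the matched dose difference of Egr1 (-0.26). Without the Proton 75 cGy mouse as well, chosen after the data were seen, the sign changed for the proton slopes of Fos (-0.24), Jun (-0.48), Atf3 (-0.012) and Nr4a1 (-0.047), the gamma slopes of Fosb (-0.17), Junb (0.39), Ier2 (0.048), Atf3 (-0.080), Nr4a1 (-0.12) and Klf4 (0.039) and the slope difference of Jun (-0.14). With log2(dose + 1) in place of dose, the sign changed for the proton slopes of Fos (-0.0058), Jun (-0.051), Ier2 (-0.0025) and Nr4a1 (-0.00059), the gamma slopes of Junb (0.053) and Dusp1 (0.041) and the slope differences of Fosb (-0.021), Jun (-0.0035), Atf3 (-0.053), Dusp1 (-0.019) and Nr4a1 (-0.078). With the rank of dose, the sign changed for the proton slope of Jun (-0.012) and the gamma slope of Junb (0.0079). With the GC content and gene length correction, the sign changed for the gamma slopes of Junb (0.070) and Klf4 (0.028). The r of Klf4 with Fos, near 0 throughout, changed sign without TMM (0.011), with a prior count of 10 (0.0070), for residuals (0.014), without the Proton 75 cGy mouse (0.051), in Proton mice (0.090) and in Gamma mice (0.036), and in Proton mice so did the r of Junb (-0.031) and Ier2 (-0.057). Leaving out 1 mouse or pair at a time changed signs, with ranges given, for the proton slopes of Fos (-0.13 to 0.82), Jun (-0.44 to 0.18), Ier2 (-0.20 to 0.32) and Nr4a1 (-0.25 to 0.38), the gamma slopes of Fosb (-0.39 to 0.26), Junb (-0.18 to 0.084), Atf3 (-0.096 to 0.23), Nr4a1 (-0.30 to 0.21) and Klf4 (-0.23 to 0.13), the slope differences of Jun (-0.15 to 0.46), Atf3 (-0.013 to 0.68), Nr4a1 (-0.27 to 0.57) and Klf4 (-0.0010 to 0.36), the matched dose differences of Egr1 (-0.12 to 0.17), Ier2 (-0.20 to 0.020) and Dusp1 (-0.20 to 0.045) and the r with Fos of Klf4 (-0.16 to 0.12). In all, 480 other values of single genes kept direction and side of the threshold, and of those that left out 1 mouse or pair 831 did and 40 changed sign. Replicate numbers do not pair the mice, and only dose does. With mice of the same dose as a block, 0 members were called for the slope difference. The cause of these changes was not tested. With 1 mouse per dose, and libraries at 150 and 200 cGy that differ in GC dependence, the slopes rest on the spread between mice of different doses, which exceeded the counting error at a median depth of 6056776 counts.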
